A study of Mus musculus with 31 samples.

Results

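The collagen hydroxylases and lysyl oxidases followed here are 10 genes whose products modify collagen before and after it leaves the cell. They are the prolyl 4-hydroxylase alpha subunits P4ha1, P4ha2 and P4ha3, the lysyl hydroxylases Plod1, Plod2 and Plod3, and the lysyl oxidases Lox, Loxl2, Loxl3 and Loxl4. Rows were taken by gene symbol, without use of their values, but the 10 genes were chosen with earlier results of these data known. They came from 3 tables of gene counts that list 56980 genes (2D and 3D culture), 55487 genes (conditioned media) and 56941 genes (overexpression). All 10 were found in each table.

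Prolyl 4-hydroxylases are enzymes of the endoplasmic reticulum that use oxygen, iron and 2-oxoglutarate to hydroxylate prolines of collagen chains, which stabilises the triple helix, and their alpha subunits work together with the beta subunit P4hb. Lysyl hydroxylases modify collagen lysines in the same compartment, and Plod2 acts on the telopeptide lysines that form stable crosslinks. Lysyl oxidases are copper-dependent amine oxidases that oxidise lysines and hydroxylysines outside the cell so that collagen and elastin can crosslink. P4ha1, P4ha2, Plod2 and Lox are textbook targets of the hypoxia-inducible factor, and a stiff, collagen-rich matrix is a hallmark of pancreatic cancer.

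The study asked how macrophage-conditioned medium and the chemokine Cxcl5 act on the growth of Panc02 cells, a murine pancreatic adenocarcinoma line, as spheroids in Matrigel (3D) or as a monolayer (2D). In the culture experiment, WT and Cxcl5-/- cells were each grown in 2D and in 3D (4 groups, n = 3 each). In the overexpression experiment, all in 3D, WT cells (n = 2) and Cxcl5-/- cells (n = 2) were compared with Cxcl5-/- cells that also overexpressed Hif1a (Hif1aOE Cxcl5-/-, n = 3) or Myc (MycOE Cxcl5-/-, n = 3). In the medium experiment, WT spheroids were kept in control medium (Ctrl), in medium from unstimulated bone marrow macrophages (M0-CM) or in medium from macrophages treated with IFNγ and LPS (M1-CM), with n = 3 each. Cxcl5-/- cells came from lentiviral CRISPR with a single guide and puromycin selection, with no cloning step given in the sources used here, and the overexpressed Hif1a was a stabilised mouse mutant delivered by retrovirus, as was Myc. Sample labels of the overexpression experiment give a different running cell line name to each sample, whereas the study's methods name Panc02. Total counts per sample ranged from 46973008 to 72361685 in the culture experiment, from 41542533 to 64872036 in the overexpression experiment and from 43875429 to 78498230 in the medium experiment. Nothing in the labels says that samples of a group were separate cultures, so p-values measure the spread between these samples only, which may be technical. Levels are given as CPM, counts scaled to library size with TMM factors, and comparisons as log2 fold changes with their SE and the adjusted p of edgeR's quasi-likelihood test, called at an adjusted p under 0.05. The samples are bulk RNA, in which fewer expressing cells and less RNA per cell cannot be told apart.

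Cxcl5, the targeted gene, was not at 0 in any sample. In 2D, its level was 45.6, 47.3 and 49.1 CPM in WT and 37.4, 32.7 and 32.8 CPM in Cxcl5-/- cells. In 3D of the culture experiment the transcript went against the label, with 28.5, 24.5 and 28.0 CPM in WT and 65.5, 40.9 and 45.4 CPM in the samples labelled Cxcl5-/- (log2 fold change 0.91, SE 0.14, edgeR adjusted p = 0.000173). In the overexpression experiment it was lower in Cxcl5-/- (36.6 and 40.2 CPM) than in WT cells (64.2 and 67.7 CPM). Counts of a gene do not show whether its coding sequence was edited, and the 3D libraries concerned are therefore called the samples labelled 3D Cxcl5-/-. The study checked the knockout by immunoblot for CXCL5 protein, shown for WT and Cxcl5-/- cells in 3D. Whether those were the cultures sequenced is not given in the sources used here. Epithelial keratins identified the 3D WT cells in part, where Krt8 averaged 569 CPM. The epithelial adhesion genes Epcam and Cdh1 were at 0 in all 2D samples and all samples of the medium experiment. Summed epithelial markers lay below summed fibroblast markers in the samples labelled 3D Cxcl5-/- (190 to 222 against 433 to 484 CPM). The same held for Cxcl5-/- samples of the overexpression experiment (258 and 272 against 563 and 580 CPM), but not for 2D Cxcl5-/- samples (445 to 482 against 175 to 187 CPM).

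The members that the results turn on lie on different chromosomes (GRCm38, GENCODE M21). P4ha1 is ENSMUSG00000019916 at chr10:59323296-59373304 and P4ha2 is ENSMUSG00000018906 at chr11:54100095-54131665, both on the plus strand. Plod2 (ENSMUSG00000032374) lies at chr9:92542223-92608428, Plod3 (ENSMUSG00000004846) at chr5:136987019-136996648 and Loxl2 (ENSMUSG00000034205) at chr14:69609068-69695834, on the plus strand, and Loxl4 (ENSMUSG00000025185) at chr19:42593982-42612813 on the minus strand. The window printed for P4ha2 falls inside the annotated gene, whose first start is further upstream.

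The 250 bases before the RefSeq start (GRCm38.p6) were used for 6 of the 10 members, P4ha1, P4ha2, P4ha3, Plod1, Plod3 and Loxl4. They are shown for P4ha1, P4ha2 and Plod3, which hold the hypoxia response core ACGTG, and for Plod1, which holds only the related core GCGTG. Capitals mark ACGTG or GCGTG on either strand, so that CACGT and CACGC are the same cores read from the other strand. All are written 5′ to 3′ on the strand of the gene, at chr10:59323046-59323295 (plus strand) for P4ha1, chr11:54100674-54100923 (plus) for P4ha2, chr5:136986769-136987018 (plus) for Plod3 and chr4:147936777-147937026 (minus) for Plod1.
P4ha1: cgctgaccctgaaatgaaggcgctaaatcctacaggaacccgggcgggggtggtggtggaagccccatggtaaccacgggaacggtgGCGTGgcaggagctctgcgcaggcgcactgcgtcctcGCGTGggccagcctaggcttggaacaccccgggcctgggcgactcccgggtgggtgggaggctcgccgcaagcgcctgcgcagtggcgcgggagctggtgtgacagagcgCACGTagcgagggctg
P4ha2: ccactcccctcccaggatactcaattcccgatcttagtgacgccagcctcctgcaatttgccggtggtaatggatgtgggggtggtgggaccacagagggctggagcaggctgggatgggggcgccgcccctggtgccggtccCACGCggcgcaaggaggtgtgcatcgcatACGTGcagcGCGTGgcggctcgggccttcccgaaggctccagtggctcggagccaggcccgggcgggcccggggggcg
Plod3: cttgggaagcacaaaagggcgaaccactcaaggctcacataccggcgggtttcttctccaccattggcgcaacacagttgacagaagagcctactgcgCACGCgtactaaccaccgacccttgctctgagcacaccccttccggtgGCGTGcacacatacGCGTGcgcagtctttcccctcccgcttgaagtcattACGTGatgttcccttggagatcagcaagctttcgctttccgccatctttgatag
Plod1: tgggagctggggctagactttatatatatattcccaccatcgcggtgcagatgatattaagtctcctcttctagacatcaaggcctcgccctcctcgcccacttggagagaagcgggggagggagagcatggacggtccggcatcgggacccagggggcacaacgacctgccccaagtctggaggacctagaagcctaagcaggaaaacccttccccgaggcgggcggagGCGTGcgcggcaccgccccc
The ACGTG core stood 16 bases before the start in P4ha1, 78 in P4ha2 and 54 in Plod3, counted at its first base on the gene's strand. GCGTG was present in all 4 of these windows and in that of Loxl4, and P4ha3 held neither core. Among the same window of 32851 RefSeq promoters, 16.6% held ACGTG and 28.2% held GCGTG, and the E-box CACGTG, which contains ACGTG and was searched on both strands, was in 6.0% of them and in 0 of the 6 member windows. A match gives letters only and was not tested as a binding site.

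Levels of different genes were compared per kilobase of merged exons. In the culture experiment P4ha1 led in 3D WT samples with 114 CPM per kb, followed by Plod2 with 95.1, Plod3 with 33.9, Loxl4 with 26.6 and Loxl3 with 16.5. Plod1 (5.95 CPM per kb) and P4ha2 (5.09) stood close together, and Loxl2 (1.02) and Lox (0.13) were far lower. P4ha3 had 0, 7 and 4 counts in the 3D WT samples and 0 in the other 9 samples, so it was not tested there. In 2D WT samples the order differed, because Loxl3 (21.5 CPM per kb) stood above Plod2 (18.6) and Plod3 (16.8). P4ha1 and Plod2 are thus the alpha subunit and the lysyl hydroxylase with the highest level in these cells in 3D.

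The first comparison asked what 3D growth in Matrigel changed in WT cells. All 9 members tested passed the threshold, with 8 higher and 1, Loxl3, lower in 3D, beside 22.2% of all genes called higher and 22% called lower. The median log2 fold change of the members was 1.59, against 0.00 over all genes. P4ha2 moved most, and both testable alpha subunits rose.

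P4ha1 was at 108, 104 and 107 CPM in 2D WT samples and at 495, 447 and 463 CPM in 3D WT samples, a log2 fold change of 2.14 (SE 0.08, edgeR adjusted p = 4.9e-10). P4ha2 was at 2.50, 2.17 and 2.09 CPM in 2D and at 33.4, 29.1 and 32.7 CPM in 3D, a log2 fold change of 3.82 (SE 0.18, edgeR adjusted p = 2.18e-09). For both genes the groups were far apart. Plod2, the telopeptide lysyl hydroxylase, had 94.2, 101 and 107 CPM in 2D and 503, 493 and 542 CPM in 3D (log2 fold change 2.35, SE 0.09, edgeR adjusted p = 5.99e-10). Plod1 and Plod3 rose less, from 19.7 ± 2.73 to 40.2 ± 4.64 CPM (SD, n = 3) and from 75.8 ± 8.72 to 153 ± 22.9 CPM (SD, n = 3), with log2 fold changes of 1.03 and 1.02. The lysyl hydroxylases therefore rose together but to unequal degrees. No sample of one group overlapped the other for any of them, but the share of all genes separated in this way was not counted. Plod3 overlaps Znhit1 on the opposite strand, and the sources used here do not give whether strand was used in counting, so its counts may include reads of that gene.

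The lysyl oxidases divided. Loxl4 stood at 34.4, 33.8 and 35.4 CPM in 2D WT samples and at 127, 97.9 and 112 CPM in 3D WT samples, a log2 fold change of 1.70 (SE 0.16, edgeR adjusted p = 1.05e-06). Loxl2, whose locus holds an antisense transcript (Gm27177), was at 1.68, 2.13 and 1.68 CPM in 2D and at 5.89, 5.44 and 5.17 CPM in 3D, a log2 fold change of 1.59 (SE 0.25, edgeR adjusted p = 0.000153). Neither overlapped between the cultures, again without a count of all genes separated in this way. Loxl3 was the member that fell, from 100.4, 91.7 and 104 CPM to 84.4, 72.9 and 71.1 CPM (log2 fold change -0.37, SE 0.10, edgeR adjusted p = 0.00639), and without 3D WT replicate 3 this was -0.30 (adjusted p = 0.0513). Loxl3 overlaps Htra2 on the opposite strand, with the same doubt on its counts. Lox, the founding lysyl oxidase, had only 15 to 38 counts per sample and a log2 fold change of 1.10 (SE 0.40, edgeR adjusted p = 0.0397). That call for Lox was lost in 5 of 6 fits that left out 1 sample (edgeR adjusted p up to 0.113), and with library totals in place of TMM it was 0.88 (edgeR adjusted p = 0.103), a scale on which the median of all genes moved to -0.21 and calls over all genes from 4752 higher and 4707 lower to 3563 and 6712.

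**Figure D1:**
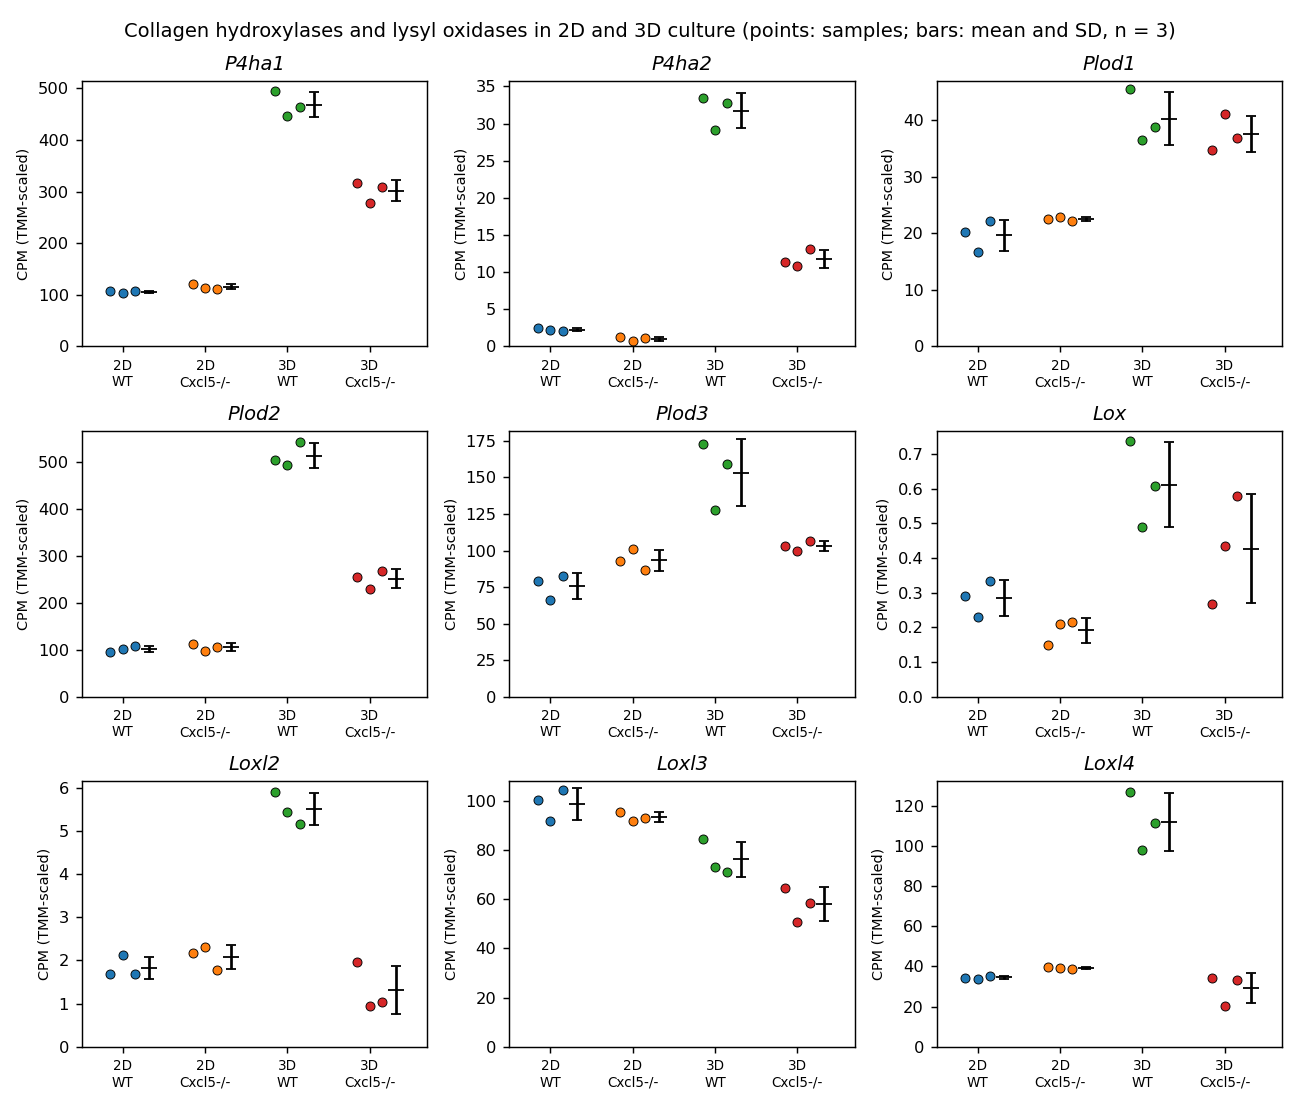
Level of the 9 members tested in the culture experiment, in CPM of the TMM-scaled library on axes that start at 0, with 1 point per sample and the mean and SD (n = 3) beside each group of 2D WT, 2D Cxcl5-/-, 3D WT and 3D samples labelled Cxcl5-/-. P4ha1 and Plod2 are high in 3D WT samples and intermediate in 3D samples labelled Cxcl5-/-, whereas Loxl4 falls in the latter from between 97.9 and 127 CPM to between 20.4 and 34.2 CPM.

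P4hb, the partner of the alpha subunits, rose by 1.18 on the log2 scale (SE 0.10, edgeR adjusted p = 3.21e-07). Other genes of collagen processing moved less uniformly with 3D growth. Of a list of 28 genes for collagen folding, processing and crosslinking cofactors, 23 were tested, 12 were higher and 2 lower (median 0.40). Adamts14, a procollagen N-proteinase, rose by 1.36 on the log2 scale, while Bmp1, the procollagen C-proteinase, fell by 0.73. Of 13 collagen and elastin chains, the substrates of the members, 12 were tested, 7 were higher and 1, Col3a1, was lower (log2 fold change -0.38). Col1a1 rose by 3.04 on the log2 scale but from a low level, 0.784 to 6.39 CPM. Of 20 hypoxia targets that are no members, 19 were higher and 0 lower (median 2.60), among them the carbonic anhydrase Car9 (6.29) and the endoplasmic reticulum oxidase Ero1a (4.79). Marker levels moved with 3D growth too. Summed epithelial markers ranged from 538 to 588 CPM in 2D WT and from 839 to 1084 CPM in 3D WT samples, with 3 of 4 tested higher and 1 lower. Summed fibroblast markers ranged from 171 to 185 CPM and from 158 to 165 CPM, with 3 of 5 tested higher and 1 lower, and summed macrophage markers from 1.90 to 2.66 CPM and from 7.35 to 8.85 CPM, with 3 of 4 tested higher. Their part in the members' change was not tested.

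In 3D, the samples labelled Cxcl5-/- had lower levels of most members than WT samples. Of the 9 tested, 7 were called lower and 0 higher, beside 25.3% of all genes called lower and 19.7% called higher. The median log2 fold change of the members was -0.64 and that of all genes -0.04. Loxl2 and Loxl4 fell most, and Plod1 and Lox did not pass the test.

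Loxl4 fell from 127, 97.9 and 112 CPM in 3D WT samples to 34.2, 20.4 and 33.0 CPM in the samples labelled 3D Cxcl5-/-, a log2 fold change of -1.94 (SE 0.16, edgeR adjusted p = 4.19e-07). Loxl2 fell from 5.89, 5.44 and 5.17 CPM to 1.96, 0.953 and 1.04 CPM, a log2 fold change of -2.06 (SE 0.26, edgeR adjusted p = 2.26e-05). Both ended near or below their level in 2D. P4ha2 fell from 33.4, 29.1 and 32.7 CPM to 11.3, 10.9 and 13.1 CPM (log2 fold change -1.43, SE 0.16, edgeR adjusted p = 8.16e-06). P4ha1 dropped from 468 ± 24.4 to 302 ± 20.5 CPM (SD, n = 3), a log2 fold change of -0.64 (SE 0.08, edgeR adjusted p = 2.09e-05). Both alpha subunits were above the levels of 2D Cxcl5-/- samples, unlike Loxl2 and Loxl4. Plod2 fell from 503, 493 and 542 CPM to 255, 229 and 268 CPM (log2 fold change -1.03, SE 0.09, edgeR adjusted p = 9.02e-07).

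Smaller falls were found for Plod3 (log2 fold change -0.57, SE 0.12, edgeR adjusted p = 0.00114), from 173, 128 and 159 CPM to 103, 99.5 and 107 CPM, and for Loxl3 (-0.39, SE 0.10, edgeR adjusted p = 0.00495), from 76.2 ± 7.22 to 58.0 ± 6.94 CPM (SD, n = 3). Plod1 was at 45.4, 36.5 and 38.7 CPM against 34.8, 41.1 and 36.7 CPM, so the groups overlapped (log2 fold change -0.10, edgeR adjusted p = 0.495), and Lox also overlapped (-0.52, SE 0.40, edgeR adjusted p = 0.31). The scaling matters here: with library totals in place of TMM the median of all genes moved from -0.04 to 0.35, calls over all genes from 4218 higher and 5397 lower to 7671 higher and 2445 lower, and Plod3 (log2 fold change -0.18, edgeR adjusted p = 0.208) and Loxl3 (-0.01, edgeR adjusted p = 0.907) were no longer called. P4ha1 (-0.25), P4ha2 (-1.04), Plod2 (-0.64), Loxl2 (-1.71) and Loxl4 (-1.57) stayed called on that scale too. The call for Loxl3 was also lost without 3D KO replicate 2 (-0.27, edgeR adjusted p = 0.0551).

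P4hb fell with its partners (log2 fold change -0.82, SE 0.09, edgeR adjusted p = 1.19e-05), from 2249.9 ± 262 to 1277 ± 83.6 CPM (SD, n = 3). Genes around the members did not move as 1 block. Of the 23 tested genes of the collagen processing list, 8 were lower and 4 higher (median -0.11), with the procollagen C-proteinase enhancer Pcolce2 (log2 fold change -2.53) and Adamts14 (-2.45) at one end, and the collagen chaperone Fkbp14 (1.37), Bmp1 (1.30) and fibronectin Fn1 (1.29) at the other. Among the substrates, 5 of 12 chains were lower and 3 higher, of which Col3a1 rose from 497 ± 30.1 to 825 ± 58.1 CPM (SD, n = 3). The 20 hypoxia targets had 19 lower and 0 higher (median -1.11), led by Adm, Ero1a and Ankrd37. Hif1a itself was at 363, 336 and 407 CPM in WT and at 175, 140 and 163 CPM in the samples labelled Cxcl5-/-.
Cell type markers moved as well. The summed level of 6 epithelial markers ranged from 839 to 1084 CPM in 3D WT samples and from 190 to 222 CPM in the samples labelled 3D Cxcl5-/-, with 3 of 4 tested lower and 1 higher. That of 6 fibroblast markers, of which 3 of 5 tested were higher and 2 lower, ranged from 158 to 165 CPM and from 433 to 484 CPM. Summed macrophage markers ranged from 7.35 to 8.85 CPM in 3D WT samples and from 14.6 to 23.9 CPM in the samples labelled 3D Cxcl5-/-. Of these markers, 1 of 4 tested was higher and 0 lower. Adgre1 was at 0 throughout the culture experiment, and summed endothelial markers were at 0.562 CPM or less. The part of these markers in the members' change was not tested.

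In 2D the same genotype contrast called 1 member. P4ha2 was at 2.50, 2.17 and 2.09 CPM in WT and at 1.23, 0.676 and 1.12 CPM in Cxcl5-/- cells (log2 fold change -1.15, SE 0.19, edgeR adjusted p = 0.00138). The other 8 did not pass the test, beside 3.86% of all genes called higher and 3.17% called lower. Plod2 stood at 100.5 ± 6.17 CPM in 2D WT and 105 ± 8.02 CPM in 2D Cxcl5-/- samples (SD, n = 3), and Loxl4 at 34.5 ± 0.786 and 39.2 ± 0.524 CPM (SD, n = 3).

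Whether genotype acted unequally in the 2 cultures was tested as an interaction, in which 5 members were called, all with the 3D effect further down, beside 16.1% of all genes called lower and 11.1% called higher. These were Loxl2 (-2.25, SE 0.36, edgeR adjusted p = 0.000486), Loxl4 (-2.12, SE 0.22, edgeR adjusted p = 1.61e-05), Plod2 (-1.10, SE 0.13, edgeR adjusted p = 4.26e-05), Plod3 (-0.87, SE 0.16, edgeR adjusted p = 0.00151) and P4ha1 (-0.75, SE 0.11, edgeR adjusted p = 0.000267). For P4ha2 the interaction was -0.28 (SE 0.24, edgeR adjusted p = 0.434), and its level was called lower in both cultures. With library totals, which moved the median interaction of all genes from -0.05 to 0.32, the calls over all genes went from 2376 higher and 3431 lower to 4585 higher and 1359 lower, and the 5 members were still called lower.

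The samples labelled 3D Cxcl5-/- had more P4ha2 (log2 fold change 3.54), P4ha1 (1.39), Plod2 (1.25) and Plod1 (0.73) than 2D Cxcl5-/- samples, and less Loxl3 (-0.69). With Lox higher and Loxl2 and Loxl4 lower, 5 members were called higher and 3 lower, beside 28.7% and 28.2% of all genes. The calls for Lox (1.16, edgeR adjusted p = 0.0292), Loxl2 (-0.66, edgeR adjusted p = 0.0394) and Loxl4 (-0.42, edgeR adjusted p = 0.0296) were close to the threshold. Leaving out any of the 3 2D replicates or 3D KO replicate 2 or 3 ended at least 1 of these calls. Loxl2 without 3D KO replicate 2 was at -0.47 (edgeR adjusted p = 0.156), Loxl4 without it at -0.21 (edgeR adjusted p = 0.0967), and Lox without 3D KO replicate 3 at 0.85 (edgeR adjusted p = 0.141). Plod3, which rose in WT cells, was at 93.3 ± 7.18 CPM in 2D and 103 ± 3.62 CPM in the samples labelled 3D Cxcl5-/- (SD, n = 3, log2 fold change 0.14, edgeR adjusted p = 0.302). Plod3 was called higher with library totals (0.30, edgeR adjusted p = 0.0379) and with at least 10 counts in every sample (0.27, edgeR adjusted p = 0.0433), and Loxl2 and Loxl4 were called neither with library totals (edgeR adjusted p = 0.0622 and 0.0726) nor with DESeq2 size factors (edgeR adjusted p = 0.0566 and 0.0548).

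The overexpression experiment holds WT and Cxcl5-/- samples of its own, in 3D, and so gives the genotype contrast in samples not used above. Of 10 members tested, 5 were lower and 0 higher in Cxcl5-/- cells, beside 24.3% of all genes called lower and 17.6% called higher. The median of the members was -0.56, and that of all genes was itself shifted to -0.30. P4ha1, Plod2, Plod3, Loxl2 and Loxl4 were called lower in both experiments, 5 of the 9 members tested in both, beside 15.3% of the 21058 genes tested in both. With library totals, Plod3 was not called in the culture experiment and P4ha1 not in the overexpression experiment (-0.28, edgeR adjusted p = 0.072), which leaves Plod2, Loxl2 and Loxl4 lower in both on that scale.

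Loxl2 was at 4.81 and 5.04 CPM in WT and at 0.913 and 1.56 CPM in Cxcl5-/- cells (log2 fold change -1.99, SE 0.41, edgeR adjusted p = 0.00254). Loxl4 was at 87.7 and 89.0 CPM against 50.8 and 51.2 CPM (-0.79, SE 0.11, edgeR adjusted p = 0.000164). Plod3 fell from 125 and 131 CPM to 79.0 and 84.8 CPM (-0.65, SE 0.08, edgeR adjusted p = 9.35e-05). None of these 3 genes overlapped between the genotypes, but with 2 samples each no other member did either, including those not called. Plod2 fell from 466 and 448 CPM to 327 and 334 CPM (-0.47, SE 0.10, edgeR adjusted p = 0.00448). P4ha1 fell from 467 and 488 CPM to 398 and 364 CPM (-0.32, SE 0.10, edgeR adjusted p = 0.0196), a difference near the shift of all genes that was not called in any of the 4 fits that left out 1 sample, with adjusted p from 0.0501 without rescue KO replicate 1 to 0.174 without rescue KO replicate 2, 0.0607 without rescue WT replicate 1 and 0.128 without rescue WT replicate 2. P4ha2, at 15.9 and 16.0 CPM against 11.3 and 12.6 CPM, did not pass (-0.41, SE 0.16, edgeR adjusted p = 0.0618), but was called lower by DESeq2 (-0.51, adjusted p = 0.0218), with DESeq2 size factors in edgeR (adjusted p = 0.0315), with at least 10 counts in every sample (adjusted p = 0.0205) and with only these 2 groups in the fit (adjusted p = 0.0116). Lox had 13 and 29 counts in WT and 7 and 0 in Cxcl5-/- samples (-2.62, SE 1.12, edgeR adjusted p = 0.0747), and P4ha3 had 18 and 23 counts against 0 and 4 (-3.38, SE 1.93, edgeR adjusted p = 0.171). With so few counts both calls depended on the fit: Lox was called lower by DESeq2 (-2.77, adjusted p = 0.0272) and P4ha3 by edgeR with only these 2 groups in the fit (-3.40, adjusted p = 0.0196).

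**Figure D2:**
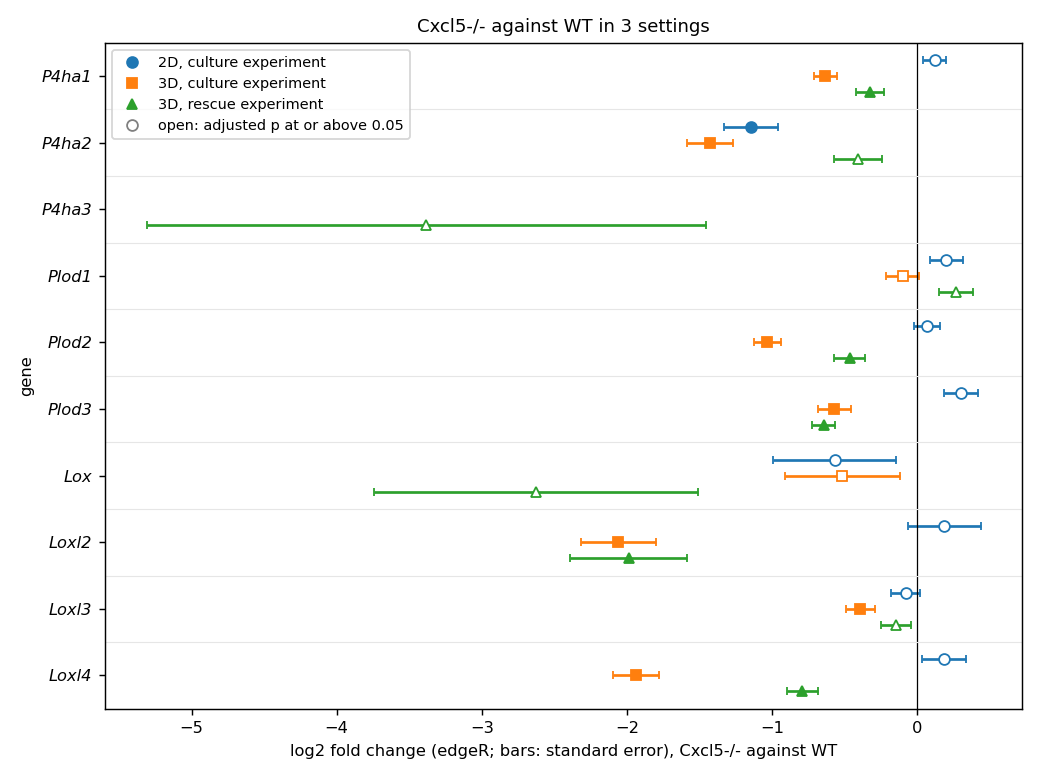
Log2 fold change of Cxcl5-/- against WT with its SE for each member, in 2D (circles) and 3D (squares, samples labelled Cxcl5-/-) of the culture experiment and in 3D of the overexpression experiment (triangles), with open symbols where the edgeR adjusted p was at or above 0.05. Loxl2 lies near -2 in both 3D experiments (-2.06 and -1.99), and P4ha2 is the member called in 2D.

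As background to these values, all 20 hypoxia targets were lower and 0 higher in these Cxcl5-/- samples (median -1.39), led by Ero1a (-2.55) and the glucose transporter Slc2a1 (-2.22). P4hb was lower (-0.57, edgeR adjusted p = 0.000701). The collagen processing list had 10 genes higher and 6 lower of 28, and the substrate list 6 higher and 1 lower of 13. Col3a1 rose by 2.22 and Col1a1 by 1.89 on the log2 scale, while Loxl2 and Loxl4 fell. Bmp1 (2.10), Fkbp14 (1.72) and Fn1 (1.45) were higher and Pcolce2 (-3.85) lower, in the directions seen in the culture experiment. Summed epithelial markers were 823 and 865 CPM in WT against 258 and 272 CPM in Cxcl5-/- samples, with 3 of 5 tested lower, and summed fibroblast markers 87.4 and 91.4 CPM against 563 and 580 CPM, with 5 of 6 higher. Over all 10 samples of this experiment, summed macrophage markers lay between 14.2 and 25.7 CPM, and summed endothelial markers were 2.10 and 3.39 CPM in WT and 0.979 CPM or less in the other groups. Their part in the members' change was not tested.

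Overexpression of Hif1a or Myc in Cxcl5-/- cells asked what each factor changes in these cells. Hif1a was at 144 and 133 CPM in Cxcl5-/- samples, at 258, 296 and 243 CPM in Hif1aOE Cxcl5-/- samples and at 241, 271 and 262 CPM in MycOE Cxcl5-/- samples, so its transcript was higher under both vectors (edgeR adjusted p = 2.99e-05 and 3.08e-05). Myc was at 22.3 and 20.02 CPM in Cxcl5-/- samples, at 23.0, 26.8 and 25.6 CPM with Hif1a and at 548, 525 and 397 CPM with Myc. In WT samples of this experiment Hif1a was at 304 and 324 CPM, above every sample of both overexpressing groups. Myc was at 46.1 and 49.3 CPM in these WT samples, between its levels with Hif1a and with Myc. The comparisons below share the 2 Cxcl5-/- samples as controls.

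Hif1a overexpression raised 3 members and lowered 2, beside 20.5% of all genes called higher and 15% called lower. P4ha2 rose from 11.3 and 12.6 CPM to 31.8, 24.2 and 26.0 CPM (log2 fold change 1.19, SE 0.15, edgeR adjusted p = 0.000102). Plod3 rose from 79.0 and 84.8 CPM to 141, 143 and 143 CPM (0.80, SE 0.08, edgeR adjusted p = 1.26e-05). Both hold the ACGTG core in the windows printed above, as does P4ha1, which stood at 398 and 364 CPM before and 370, 359.7 and 342 CPM after (-0.09, SE 0.09, edgeR adjusted p = 0.428). No window was used for Loxl2, Plod2 and Loxl3, the other members called here, and a link between core and response was not tested. Loxl2 was at 0.913 and 1.56 CPM against 1.94, 3.60 and 3.60 CPM (1.30, SE 0.38, edgeR adjusted p = 0.0189). That call was lost without rescue KO replicate 1 (0.98, edgeR adjusted p = 0.172), without Hif1aOE KO replicate 2 (1.17, edgeR adjusted p = 0.0521) and without Hif1aOE KO replicate 3 (1.16, edgeR adjusted p = 0.0514). Plod2 went the other way, from 327 and 334 CPM to 236, 246 and 226 CPM (-0.49, SE 0.09, edgeR adjusted p = 0.00178), as did Loxl3, from 39.9 and 46.3 CPM to 29.1, 33.6 and 32.3 CPM (-0.44, SE 0.09, edgeR adjusted p = 0.00316), a call lost without rescue KO replicate 2 (-0.32, edgeR adjusted p = 0.0815). Of 10 members tested, 3 higher and 2 lower is near the shares of all genes, so the split in direction is not read as a trait of the members.

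Myc overexpression raised 1 member and lowered 3, beside 21.6% of all genes called higher and 18% called lower. Plod1, which was not called between the genotypes, rose from 38.0 and 39.6 CPM to 56.8, 52.6 and 51.7 CPM (log2 fold change 0.47, SE 0.11, edgeR adjusted p = 0.00432), though with library totals this was 0.13 (edgeR adjusted p = 0.4). Plod2 fell from 327 and 334 CPM to 186, 198 and 229 CPM (-0.69, SE 0.09, edgeR adjusted p = 0.000117). Loxl3 fell from 39.9 and 46.3 CPM to 25.5, 25.0 and 23.6 CPM (-0.80, SE 0.09, edgeR adjusted p = 3.95e-05). No sample of the groups overlapped for these 3 genes, but neither did any for P4ha2, Plod3 and Lox, which were not called. Loxl4 fell from 50.8 and 51.2 CPM to 35.2, 43.3 and 34.4 CPM (-0.44, SE 0.10, edgeR adjusted p = 0.00399), further from the WT level. With library totals the median of all genes moved from 0.11 to -0.11 for Myc and from 0.16 to 0.00 for Hif1a. On that scale the calls over all genes were 4271 higher and 7482 lower in place of 6205 and 5167 for Myc, and 4335 and 5604 in place of 5904 and 4308 for Hif1a, and P4ha1 was called lower under both factors (log2 fold change -0.34 and -0.32), as was Plod1 under Hif1a (-0.37).

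**Figure D3:**
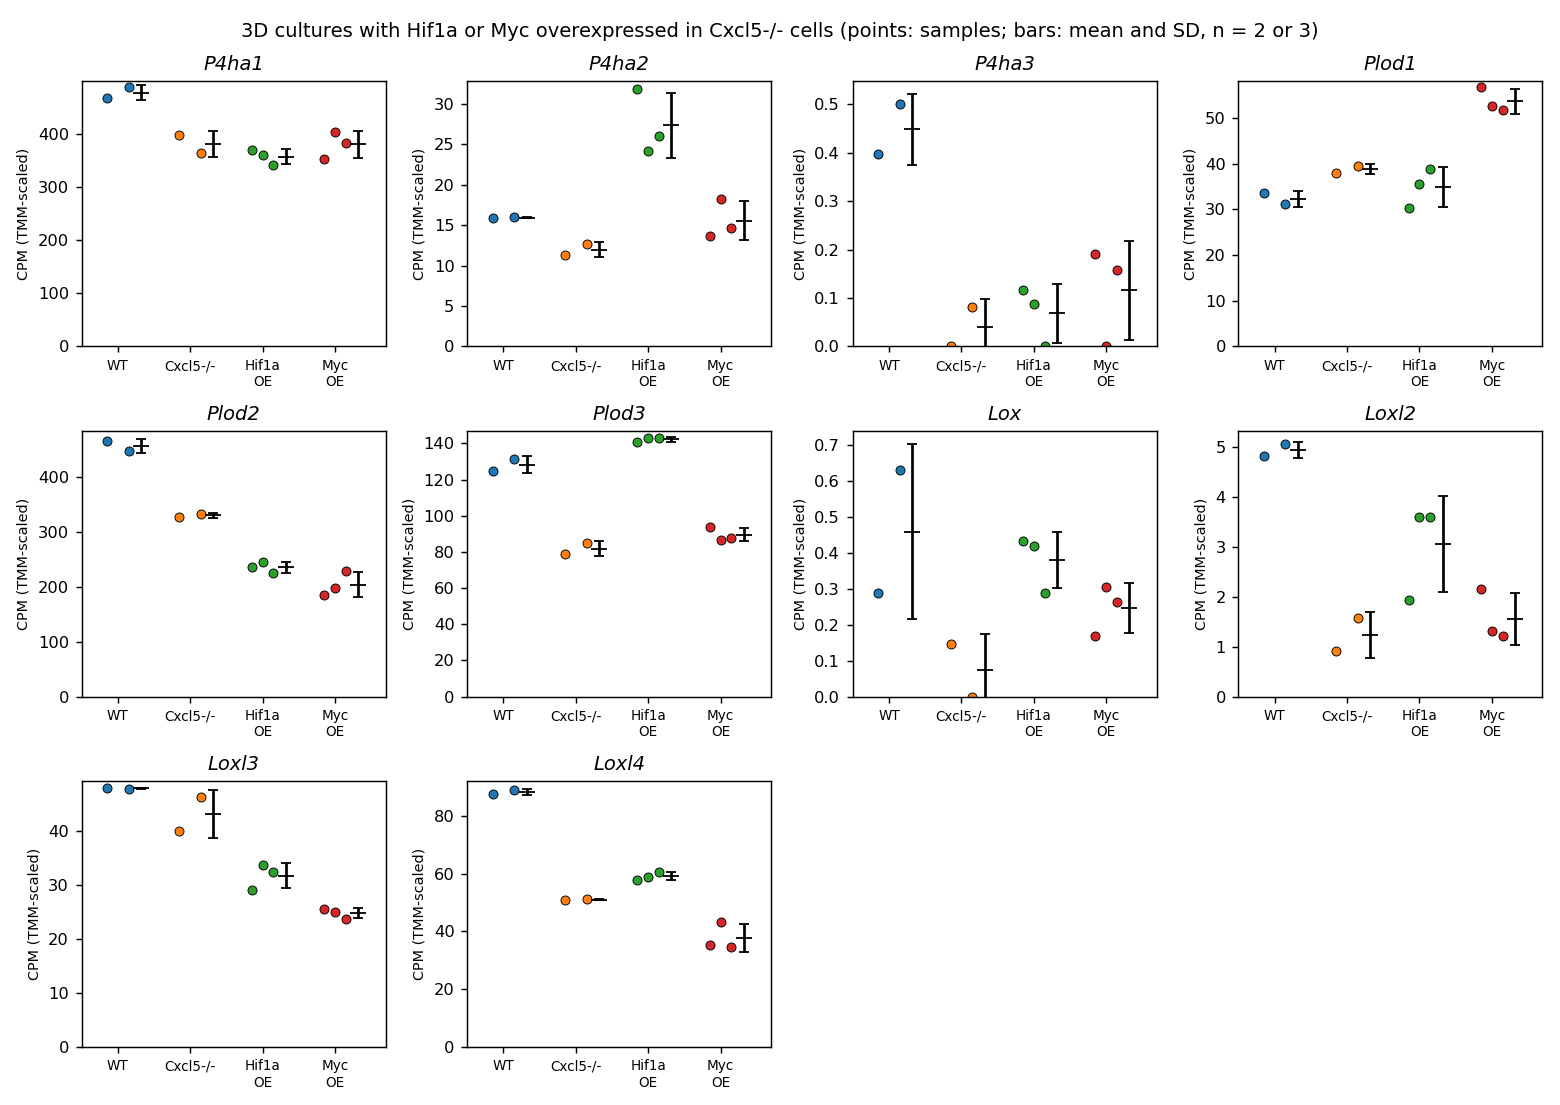
Level of all 10 members in the overexpression experiment, in CPM of the TMM-scaled library on axes that start at 0, with 1 point per sample and the mean and SD beside each group (WT and Cxcl5-/- n = 2, Hif1aOE and MycOE Cxcl5-/- n = 3). Plod3 and P4ha2 are highest with Hif1a, Plod1 is highest with Myc, and Plod2 steps down from WT (448 and 466 CPM) over Cxcl5-/- to both overexpressing groups.

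**Figure D4:**
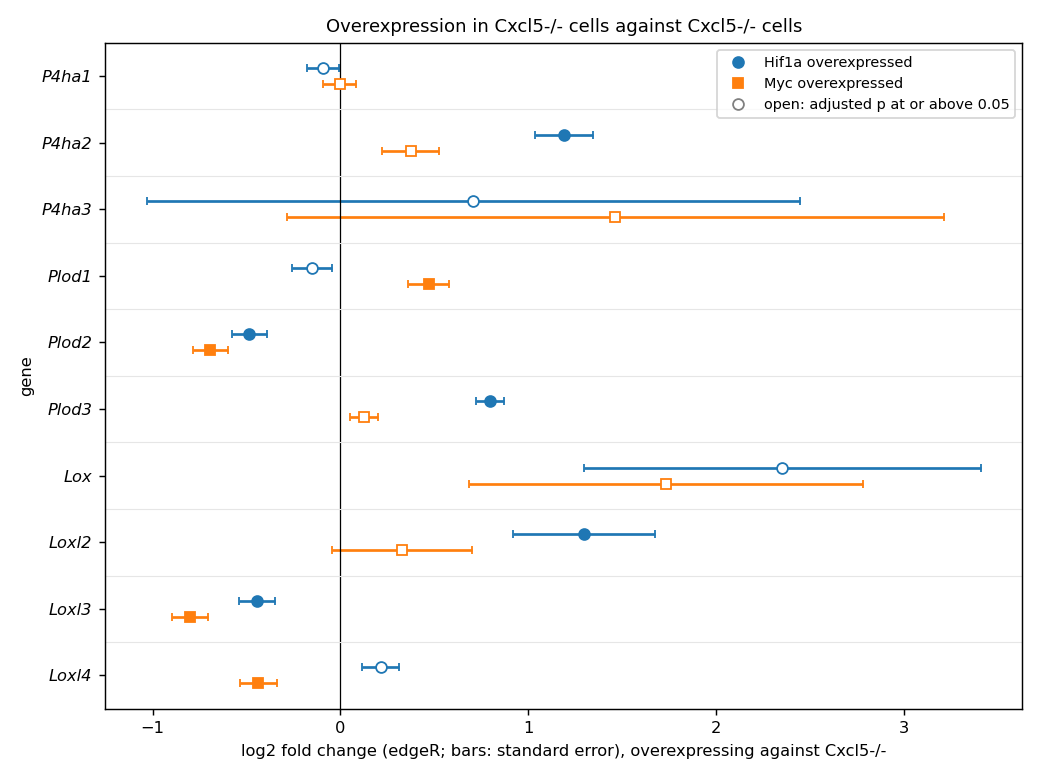
Log2 fold change with its SE for each member in Hif1aOE (circles) and MycOE (squares) Cxcl5-/- cells against Cxcl5-/- cells, with open symbols where the edgeR adjusted p was at or above 0.05. P4ha2, Plod3 and Loxl2 lie to the right with Hif1a (1.19, 0.80 and 1.30), and Plod2 and Loxl3 lie to the left with both factors.

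Set directly against each other, Myc and Hif1a overexpression differed for 5 members, beside 9.54% of all genes called higher and 9.73% called lower with Myc. Plod1 was higher with Myc (log2 fold change 0.62, edgeR adjusted p = 0.000777). P4ha2 (-0.82), Plod3 (-0.67), Loxl4 (-0.65) and Loxl3 (-0.36) were lower. Loxl2 had a larger difference (-0.97, SE 0.32) that did not pass the test (edgeR adjusted p = 0.0591). It was called with library totals (-1.09, edgeR adjusted p = 0.0325), by DESeq2 (-0.95, adjusted p = 0.0449), with at least 10 counts in every sample (-0.98, edgeR adjusted p = 0.0265), without Hif1aOE KO replicate 1 (-1.21, edgeR adjusted p = 0.0258) and without MycOE KO replicate 1 (-1.28, edgeR adjusted p = 0.0296). Plod2 did not pass the test (-0.21, SE 0.09, edgeR adjusted p = 0.121) but was called by DESeq2 (-0.19, adjusted p = 0.0489) and without MycOE KO replicate 3 (-0.30, edgeR adjusted p = 0.0224), and P4ha1 did not pass either (0.09, SE 0.08, edgeR adjusted p = 0.497).

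Against WT samples, Hif1aOE Cxcl5-/- samples had more P4ha2 (log2 fold change 0.78, edgeR adjusted p = 0.00388) and less Plod2 (-0.95), Loxl3 (-0.59), Loxl4 (-0.58) and P4ha1 (-0.42), which is 1 member higher and 4 lower beside 13.9% and 10.3% of all genes. The call for P4ha1 was lost without rescue WT replicate 2 (-0.37, edgeR adjusted p = 0.0762). Plod3 did not pass the test against WT (0.15, SE 0.07, edgeR adjusted p = 0.166), nor did Loxl2 (-0.69, SE 0.35, edgeR adjusted p = 0.17). MycOE Cxcl5-/- samples had more Plod1 than WT samples (0.73) and less of Loxl2 (-1.66), Loxl4 (-1.23), Plod2 (-1.16), Loxl3 (-0.95), Plod3 (-0.52) and P4ha1 (-0.33), so 1 member was higher and 6 lower beside 17.1% and 14.7% of all genes. Without rescue WT replicate 1 or 2 the call for P4ha1 was lost (edgeR adjusted p = 0.072 and 0.149). With library totals, the calls over all genes were 2209 higher and 3587 lower in place of 4001 and 2961 for Hif1a against WT, 2477 and 6217 in place of 4903 and 4225 for Myc against WT, and 1982 and 3504 in place of 2742 and 2796 for Myc against Hif1a. With DESeq2 size factors they were 2584 and 3798 for Hif1a against WT and 3739 and 5115 for Myc against WT.

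Beside these values, the hypoxia targets were raised by both vectors, 14 of 20 with Hif1a (median 0.88) and 17 of 20 with Myc (median 0.99), with 0 lower in either. Pfkfb3, a regulator of glycolysis, was among the highest with both (1.86 and 2.72), and Car9 rose with Myc (4.38). Of the 13 substrate chains, 7 fell and 0 rose with each factor, led by Col1a1 (-2.31 with Hif1a and -2.45 with Myc). P4hb rose with Hif1a (0.36, edgeR adjusted p = 0.00686) and not past the threshold with Myc (0.10, edgeR adjusted p = 0.402). Ppib, a collagen prolyl isomerase, rose with both (1.03 and 1.04), within 9 genes of the processing list higher and 7 lower with Hif1a and 9 and 9 with Myc. Summed epithelial markers ranged from 687 to 820 CPM with Hif1a and from 244 to 287 CPM with Myc, and summed fibroblast markers from 133 to 173 CPM and from 326 to 353 CPM. How far these shifts enter the members' values was not tested.

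In the medium experiment no member was called in any comparison. With the added limit of an absolute log2 fold change above 1, calls over all genes were 0.0156% for M1-CM against Ctrl, 0.0156% for M1-CM against M0-CM and 0% for M0-CM against Ctrl. These are 3, 3 and 0 genes, all higher, of 19207, whereas the DESeq2 Wald test called 58 higher and 16 lower, 17 and 8, and 14 and 3 in the same order. The lowest edgeR adjusted p of a member was 0.965, 0.989 and 1 in the same order, DESeq2 also called 0, and at an unadjusted p under 0.05 there were 0, 1 (P4ha1) and 1 (Plod1). P4ha1 was at 433, 301 and 490.1 CPM in Ctrl, at 463, 558 and 559 CPM with M0-CM and at 399, 254 and 431 CPM with M1-CM. Plod2 was at 569.9, 299 and 522 CPM, at 613, 581 and 644 CPM and at 486, 361 and 522 CPM in the same groups. Ctrl replicate 2 was low for both genes and M1-CM replicate 2 was low among its group. M0-CM samples lay above all M1-CM samples for both genes and above all Ctrl samples for Plod2, without a call. The share of all genes separated in this way was not counted, so this is not read as an effect of M0-CM. Plod3 ranged from 160.0 to 262 CPM, Loxl3 from 65.4 to 136 CPM, Loxl4 from 20.5 to 56.5 CPM, Plod1 from 37.1 to 55.2 CPM, Loxl2 from 1.38 to 3.26 CPM and Lox from 0 to 1.23 CPM over the 9 samples. Of the collagen processing list (22 tested), the substrate chains (10 tested) and the hypoxia targets (20 tested), 0 genes were called by edgeR with either medium. At an unadjusted edgeR p under 0.05, these lists had 2, 0 and 0 genes for M1-CM against Ctrl. For M1-CM against M0-CM they had 1, 1 and 0, and for M0-CM against Ctrl 2, 0 and 6. The share of all genes under that unadjusted threshold was not counted. Neither these counts nor those of the members are therefore read as a result.

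P4ha2 and P4ha3 were listed at 0 counts in all 9 samples of the medium experiment. For P4ha3 this is near its few counts elsewhere, whereas P4ha2 had 1245 to 1773 counts in the 3D WT samples of the culture experiment and 719 and 735 counts in those of the overexpression experiment. A search made after these values were seen found 52256 genes listed in all 3 tables, of which 11789 had a mean of at least 100 counts in both sets of 3D WT samples. Only 4 of these, Ddah1, P4ha2, Panx1 and Psd4, were at 0 in all 9 samples of the medium experiment. The cause was not tested, and the level of P4ha2 in conditioned medium is not read from these values.

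Across the 12 samples of the culture experiment, the genes whose log2 CPM followed that of a member most closely were found by Pearson's r, as a description of 4 groups of samples that differ in culture and genotype and share libraries. For P4ha1 these were Vwa5a (0.997), Ndrg1 (0.996) and Car6 (0.996), for Plod2 Bnip3l (0.997), Gm10720 (0.996) and Ero1a (0.996), and for P4ha2 Tnfrsf9, Rsad2 and Slc2a1 (0.991 to 0.989). Ndrg1, Ero1a and Slc2a1 are on the list of hypoxia targets. Plod3 was followed most closely by Slc39a13 (0.995), a zinc transporter, Loxl4 by Sertad1 (0.990) and Loxl2 by Tmem41b (0.978). Among the members, P4ha1 and Plod2 had r = 0.988 with each other and Loxl2 and Loxl4 r = 0.955, while r between P4ha1 and Loxl2 was 0.493. Loxl3 had negative r with P4ha1 (-0.689), P4ha2 (-0.647), Plod1 (-0.759) and Plod2 (-0.603).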

How the data were processed

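Gene counts of 31 samples, in 3 tables, were used. From stranded total RNA libraries the authors obtained reads that were aligned with HISAT2 to GRCm38 (mm10), quantified genes with StringTie and deposited counts per gene without normalization. How these counts were derived from the StringTie output, and whether strand was used, is not given in the sources used here. Samples were grouped by their labels, and all 31 columns were used.

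Counts were scaled by TMM, filtered by edgeR's filterByExpr by group and tested with edgeR 4.0.16 (quasi-likelihood test, R 4.3.3). Each fit held every group of its table, and p-values were adjusted by Benjamini-Hochberg over all tested genes. Tables were tested separately and levels were not compared between them. Genes were called at an adjusted p under 0.05 and, in the medium experiment, only where the log2 fold change also exceeded 1 in size. Standard errors were derived from the fold change and its F statistic. DESeq2 1.42.0 and other scalings, filters, sample sets and a replicate block were alternatives. The script was tested on simulated data. Total counts ranged from 41542533 to 78498230 per sample, and the SD between samples gives the precision. Samples of a group differed by far more than counting noise. Exon lengths and overlaps came from GENCODE M21 and promoter windows from RefSeq (GRCm38.p6). Each member had 1 row in each table.

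The members and the gene lists were chosen with earlier results of these data known. Text names every member, the targeted genes, the 3 genes most like a member, and from each list some of the up to 3 genes each way with the largest change among those called, with further genes chosen after their values were seen: P4hb, Krt8, Epcam, Cdh1, Adgre1, Ddah1, Panx1 and Psd4. Metabolite data and other assays were not analysed here.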

Additional observations from a re-analysis of the deposited data

Results flagged for a closer look

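The genotype effect on 5 members differed between 3D and 2D culture by the test of the difference itself. The interaction was -0.75 for P4ha1, -1.10 for Plod2, -0.87 for Plod3, -2.25 for Loxl2 and -2.12 for Loxl4 on the log2 scale, each with the samples labelled 3D Cxcl5-/- lower relative to 3D WT than 2D Cxcl5-/- to 2D WT samples.

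The Cxcl5 transcript moved in opposite directions in the 2 experiments that compare Cxcl5-/- with WT cells in 3D. Its log2 fold change was 0.91 in the culture experiment, where all 3 samples labelled Cxcl5-/- were above all 3 WT samples, and -0.78 in the overexpression experiment, where both Cxcl5-/- samples were below both WT samples. The difference between the experiments was not tested.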

How the results depend on the processing

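Over 1902 values of single members under an alternative, 1747 kept their direction and side of the threshold, 85 fell under it, 24 rose past it and 46 moved, and 0 called values reversed. An added limit of an absolute log2 fold change above 1 left 4 members called for the samples labelled 3D Cxcl5-/- against 3D WT, 4 for these against 2D Cxcl5-/-, 3 for the interaction, 1 for Cxcl5-/- against WT and 2 for Hif1a against Cxcl5-/- in the overexpression experiment, 0 for Myc against Cxcl5-/-, 0 for Myc against Hif1a, 0 for Hif1a against WT and 3 for Myc against WT, where fewer calls follow from the limit itself. Of 21367 genes, the limit left 2096 higher and 1675 lower for the samples labelled 3D Cxcl5-/- against 3D WT. It left 3995 and 2087 for these against 2D Cxcl5-/-, and 1362 and 1076 for the interaction. For the overexpression experiment such totals are not given here, so its counts are not read as a result about the members. With only the groups compared in the fit, 5 members were called for the samples labelled 3D Cxcl5-/- against 2D Cxcl5-/- in place of 8, beside 6160 higher and 5772 lower of 19857 genes. In the overexpression experiment, 8 were called for Cxcl5-/- against WT in place of 5, and the cause was not tested. Totals over all genes are not given beside these 8, nor beside the 7 of DESeq2 below. Neither count is therefore read as a result about the members. The interaction needs all groups and had no such fit. Leaving out 1 sample in turn gave 5 to 8 members for the samples labelled 3D Cxcl5-/- against 2D Cxcl5-/-. In the overexpression experiment such a fit leaves WT or Cxcl5-/- with 1 sample, which is then assumed to vary like the other groups. Without rescue KO replicate 1, Lox was called lower in Cxcl5-/- (-7.53), against a single sample with 0 counts. DESeq2 called 7 members there, with Lox and P4ha2 among them as lower. The fit of only these groups added P4ha2 and P4ha3 as lower but Plod1 as higher (0.24, edgeR adjusted p = 0.0278). Replicate numbers did not pair the samples, since the deviations of same-numbered samples had correlations from -0.10 to 0.18 in the culture experiment, -0.24 to 0.36 in the medium experiment and -0.02 to 0.05 in the overexpression experiment. A replicate block left Lox in 3D against 2D WT samples at 1.12 (edgeR adjusted p = 0.0514) and changed no other call of a member, with 8 members called in place of 9. Depth limits Lox, P4ha3 and Loxl2, which had few counts per sample.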
